A study of Mus musculus with 9 samples.

Results

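Heme synthesis and heme breakdown were followed through 9 genes in mouse ovary: Alas1, Alad, Uros, Urod, Cpox, Ppox and Fech of synthesis, and Hmox1 and Hmox2 of breakdown. They were chosen by name, and all 9 were found among the 54838 genes of the deposited table. RNA was sequenced from ovaries of adult mice 40 h after pregnant mare serum gonadotropin (PMSG), a hormone that drives follicle growth, in 9 libraries of 3 genotypes with 3 libraries each. WT was wild type, DKO lacked both liver X receptors (LXR) as a double knockout, and DKO_TG was the same knockout with a transgene whose label joins AMH and LXRb. LXRa and LXRb are nuclear receptors for oxysterols, and Amh is a gene of granulosa cells in growing follicles. All 9 libraries share the PMSG treatment. The labels give no strain, no number of animals and no promoter beyond the name of the transgene, and leave unsaid whether each library is another animal. The p-values therefore rest on library-to-library spread alone, which may be technical.

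Heme is an iron-holding ring built in a chain of enzyme steps that begin and end in the mitochondrion and pass through the cytosol. The first step, made by 5-aminolevulinate synthase (ALAS1 outside red cells), limits the rate in most tissues, and heme in turn restrains it. Heme oxygenases open the ring and release iron, carbon monoxide and biliverdin. In the ovary, heme is the working group of the cytochromes P450 that make steroids, such as CYP11A1 and CYP17A1.

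The libraries held 40.1 M to 59.4 M recovered reads. The LXR genes were lower in both knockout groups: Nr1h3 was at 4.12 to 5.47 RPKM (reads scaled to exon length and library size) in WT and at 0.538 to 1.11 in the other 6 libraries, and Nr1h2, the gene of LXRb, at 15.2 to 22.5 against 5.14 to 7.79. Nr1h2 was not above DKO (5.79 to 7.79) in the libraries labelled DKO_TG (5.14 to 5.96), so its level does not show the transgene, and DKO_TG stands for that label throughout. All 6 granulosa, 4 theca and 5 oocyte markers passed the filter on low values. Of the 6 granulosa markers, limma called 1 lower in DKO and 2 lower in DKO_TG against WT, and 0 higher in either. Among all genes tested, 25.9% were called lower in DKO and 22.3% in DKO_TG. The oocyte markers also differed from WT: 4 of 5 were called higher in DKO and 5 of 5 in DKO_TG (limma, median log2 differences 1.14 and 1.29). Among all genes tested, 30.8% were called higher in DKO and 29.1% in DKO_TG. The oocyte markers summed to 11.0 to 25.7 RPKM in WT, 25.2 to 61.1 in DKO and 39.1 to 55.4 in DKO_TG. WT differed from the other 6 libraries in a further respect. Malat1 and Neat1, RNAs kept in the nucleus, summed to 1.89 to 11.9 RPKM in WT, 218 to 279 in DKO and 295 to 337 in DKO_TG. Every comparison with WT below is also made across that gap. The part of these markers and RNAs in the results was not tested.

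RefSeq promoter windows on GRCm38.p6, from 250 bases before to 50 after a start, were found for 7 of the 9 genes. Those of Alas1, which fell most of the 9 in DKO, and of Ppox, which rose most, are shown because these genes moved in opposite directions. Capitals mark the motifs found on either strand.
Alas1 (chr9:106247681-106247980, minus strand): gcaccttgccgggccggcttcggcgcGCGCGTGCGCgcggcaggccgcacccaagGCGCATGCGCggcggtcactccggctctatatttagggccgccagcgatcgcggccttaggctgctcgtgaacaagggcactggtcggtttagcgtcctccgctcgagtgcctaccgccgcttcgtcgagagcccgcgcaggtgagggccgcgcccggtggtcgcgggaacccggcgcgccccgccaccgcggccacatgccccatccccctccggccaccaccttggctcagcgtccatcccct
Ppox (chr1:171281137-171281436, minus strand): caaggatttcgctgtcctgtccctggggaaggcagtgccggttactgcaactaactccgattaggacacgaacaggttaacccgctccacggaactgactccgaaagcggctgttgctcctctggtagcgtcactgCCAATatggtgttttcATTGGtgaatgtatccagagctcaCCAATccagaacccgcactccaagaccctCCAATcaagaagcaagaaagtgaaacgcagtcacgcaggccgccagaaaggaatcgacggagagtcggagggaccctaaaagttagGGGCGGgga
The Alas1 window, 1 of 2 overlapping windows of this gene, holds 2 matches to the palindromic motif of the factor NRF1 at positions 27 and 56 counted from its 5′ end. The looser form lies in 2.27% of 32851 windows of the same length. The Ppox window holds 4 matches to CCAAT, which 37.4% of windows hold at least once, at positions 137, 153, 177 and 206, and 1 match to GGGCGG, a GC box, which 35.7% hold. Neither window holds TGACNNNGC, the core of the antioxidant and Maf response element (12.4% of windows). AGGTCA, a core unit of nuclear receptor elements (16.3%), is absent from both too. Whole LXR elements were not searched. A match is only a stretch of letters, and these windows do not reach distant elements.

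**Figure D1:**
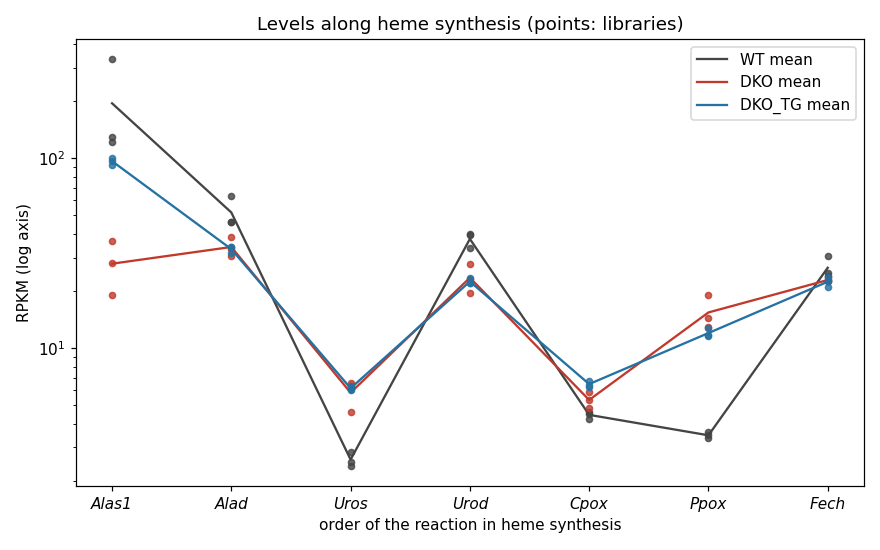
RPKM on a log axis (vertical) of the 7 synthesis genes in the order of their reactions (horizontal). Points are libraries and lines join group means. The WT line falls from 195 RPKM at Alas1 to 2.59 at Uros, and the groups part most at Alas1 and Ppox.

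Per exon length, Alas1 was the highest of the 9 genes in WT and in DKO_TG, at means of 195 and 96.5 RPKM, but not in DKO. There its 3 libraries (19.2 to 36.4 RPKM) overlapped those of Hmox1, Alad, Urod and Fech. Uros (2.59 RPKM), Ppox (3.48) and Cpox (4.45) were the lowest in WT. In DKO and DKO_TG the lowest were Uros and Cpox, which overlapped each other, and Ppox had moved above Hmox2. Alas1 made up 51.4% to 69.8% of the summed RPKM of the 7 synthesis genes in WT, 15.1% to 25.3% in DKO and 47.4% to 49.9% in DKO_TG.

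**Figure D2:**
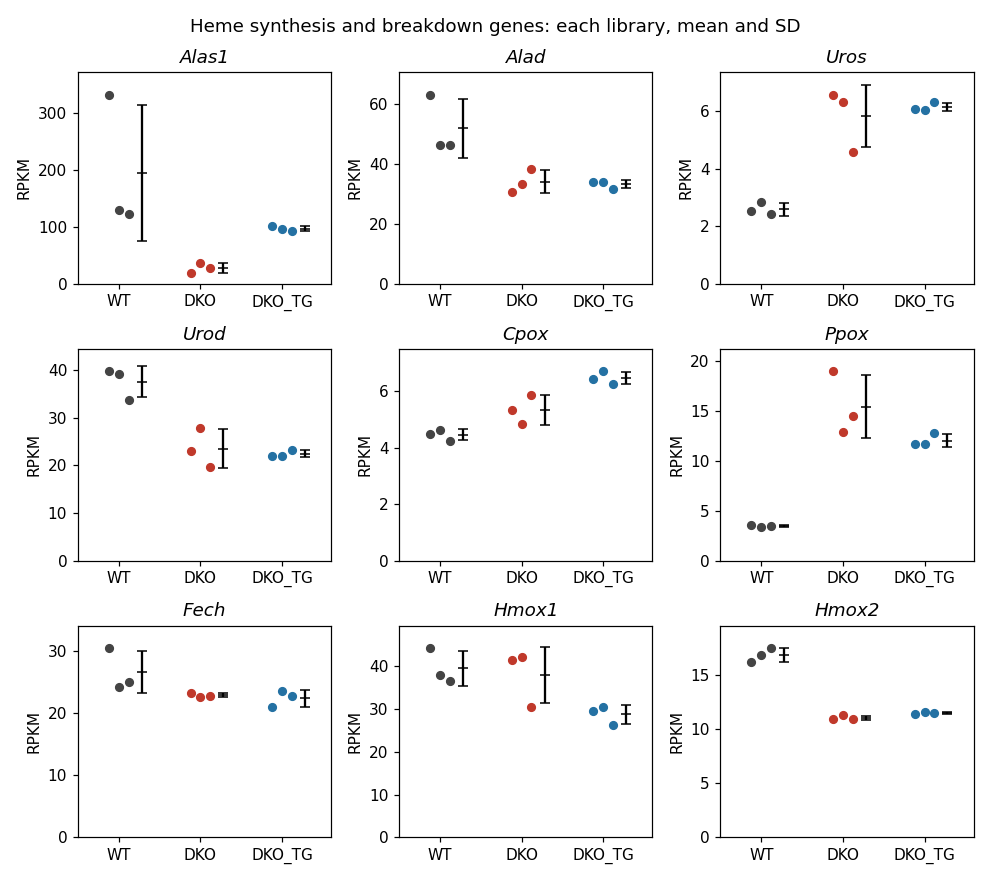
RPKM (vertical axis, from 0) of each gene in each library by group. Points are libraries in order of their number, and the bar beside them is the mean with its SD (n = 3). Alas1 is lowest in DKO, while Ppox and Uros are low in all WT libraries.

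Alas1 (chromosome 9, 106233455 to 106248654, minus strand, by GENCODE M21 on GRCm38, the build mm10, as for all gene positions here) fell furthest. It measured 332, 130 and 122 RPKM across WT libraries, 19.2, 36.4 and 27.9 across DKO libraries, and 101, 96.3 and 92.6 in the libraries of DKO_TG. The 3 groups did not overlap, and WT replicate 1 was far above the other WT libraries. In DKO against WT the log2 change was -2.67 ± 0.37 (SE, 95% interval -3.51 to -1.83, adjusted p = 0.000464 in limma), and without WT replicate 1 it was -2.20. In DKO_TG against DKO the difference was 1.82 ± 0.37 (SE, 95% interval 0.98 to 2.66, adjusted p = 0.0463 in limma), so Alas1 was called higher in DKO_TG. The call was lost with no filter (adjusted p = 0.0911), with the replicate number as a block (0.107) and without any library but WT replicate 1 (0.0582 to 0.151, limma), while the difference itself stayed between 1.58 and 2.04 over all alternatives. DKO_TG against WT had a difference of -0.85 (95% interval -1.69 to -0.01, adjusted p = 0.0849 in limma) and was not called. That difference was -0.38 without WT replicate 1.

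The 4 theca markers, among them Cyp17a1 and Star, summed to 673 to 1828 RPKM in WT, 330 to 482 in DKO and 1020 to 1363 in DKO_TG, with WT replicate 1 highest among WT here too. One by one they did not move alike: in DKO against WT, Star fell by 1.52 on the log2 scale, Insl3 rose by 1.38, and Cyp17a1 (-1.57) and Lhcgr (-0.21) were not called by limma. In DKO_TG against DKO, limma called 0 of the 4, as against 2.23% of all genes. It also called 0 of the 4 in DKO_TG against WT, as against 51.4% of all genes. In a bulk sample, fewer cells of a type and less RNA per cell cannot be told apart, and the part of cell makeup was not tested. Exons of Alas1 share 465 bases with the antisense gene 4930500F10Rik, whose means were 4.16, 0.702 and 2.27 RPKM in WT, DKO and DKO_TG. Whether counting used strand is not given in the sources used here, so reads of a gene and of its partner on the other strand cannot be told apart, here and below. Set against the last enzyme of the pathway, where a scaling factor of the library cancels, the ratio of Alas1 to Fech was 4.87 to 10.9 in WT, 0.824 to 1.61 in DKO and 4.09 to 4.82 in DKO_TG.

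**Figure D3:**
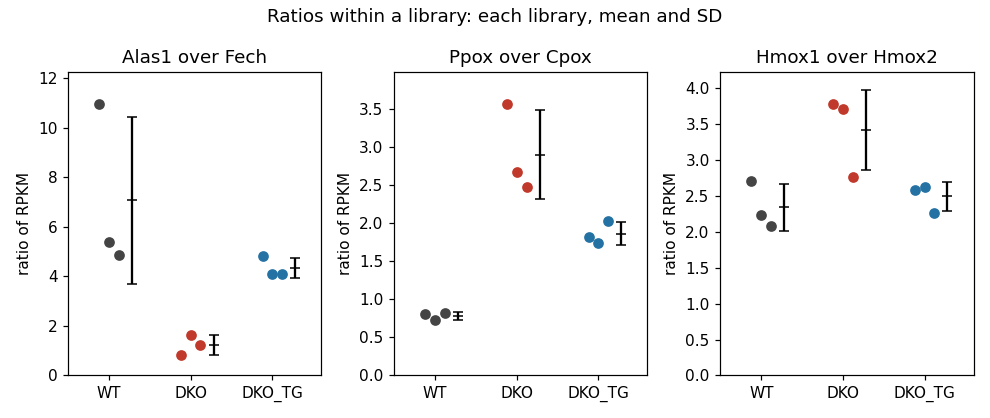
Ratio of RPKM values of 2 genes within a library (vertical axis, from 0) by group, with points for libraries and the mean with its SD (n = 3). The ratio of Alas1 to Fech is lowest in DKO, and that of Ppox to Cpox is lowest in WT.

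The cytosolic enzymes split. Alad (chromosome 4, 62509169 to 62519918, minus strand), which joins a pair of aminolevulinates into porphobilinogen, measured 63.1, 46.2 and 46.2 RPKM across WT libraries, 30.6, 33.3 and 38.3 across DKO libraries, and 34.0, 34.0 and 31.7 in the libraries of DKO_TG. Urod (chromosome 4, 116989965 to 116994413, minus strand), which trims uroporphyrinogen to coproporphyrinogen, measured 39.7, 39.2 and 33.8 RPKM across WT libraries, 23.1, 27.7 and 19.6 across DKO libraries, and 21.9, 22.1 and 23.3 in the libraries of DKO_TG. Every WT library was above every knockout library for both genes. In DKO against WT, Alad fell by 0.59 and Urod by 0.68 on the log2 scale (adjusted p = 0.00685 and 0.00229 in limma). Scaling to TPM moved the log2 differences of all genes by a median of 0.54. It left Alad and Urod at -0.04 and -0.13 (adjusted p = 0.768 and 0.383 in limma), or -0.58 and -0.67 relative to that shift. TPM divides all values of a library by the same number. Values relative to the shift, here and below, therefore return near the main ones by construction and do not show which scaling is right. The call of Alad was also lost with quantile normalization (-0.15, adjusted p = 0.274) and plain totals of reads (-0.27, adjusted p = 0.0603, limma). In DKO_TG against WT both fell too, by 0.62 and 0.73 (adjusted p = 0.00583 and 0.00171 in limma). There TPM ended both calls, at -0.10 and -0.21 (adjusted p = 0.478 and 0.184), and quantile normalization that of Alad (-0.25, adjusted p = 0.0821, limma). The intervals of DKO_TG against DKO were -0.35 to 0.28 and -0.34 to 0.24.

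Uros (chromosome 7, 133686243 to 133710072, minus strand), which closes the ring between these steps, went the other way. It measured 2.52, 2.84 and 2.41 RPKM across WT libraries, 6.58, 6.31 and 4.59 across DKO libraries, and 6.09, 6.04 and 6.32 in the libraries of DKO_TG. WT did not overlap the other groups. The log2 difference was 1.02 ± 0.13 in DKO and 1.11 ± 0.13 in DKO_TG against WT (SE, adjusted p = 0.000266 and 0.000186 in limma). Uros had the fewest reads of the 8 genes with whole reads, at 412 in WT replicate 1.

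Ppox (chromosome 1, 171275990 to 171281186, minus strand), which oxidises protoporphyrinogen in the mitochondrion, rose most. It measured 3.60, 3.35 and 3.48 RPKM across WT libraries, 18.9, 12.9 and 14.5 across DKO libraries, and 11.7, 11.6 and 12.7 in the libraries of DKO_TG. The mean in DKO was 4.43 times that in WT, and all DKO_TG libraries lay between the WT and DKO libraries. The log2 difference was 1.98 ± 0.13 in DKO and 1.65 ± 0.13 in DKO_TG against WT (SE, adjusted p = 6.95e-06 and 2.16e-05 in limma). In DKO_TG against DKO it was -0.33 (95% interval -0.63 to -0.04, adjusted p = 0.26 in limma). Ppox shares 791 exon bases with B4galt3 on the opposite strand, which was at 1.91 to 2.36 RPKM in WT, 2.76 to 3.42 in DKO and 2.53 to 3.37 in DKO_TG.

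Cpox (chromosome 16, 58670292 to 58717636, plus strand), the enzyme before Ppox, measured 4.50, 4.62 and 4.24 RPKM across WT libraries, 5.32, 4.82 and 5.86 across DKO libraries, and 6.43, 6.70 and 6.27 in the libraries of DKO_TG. The 3 groups did not overlap and stood in that order. In DKO_TG against WT it rose by a log2 difference of 0.49 ± 0.09 (SE, adjusted p = 0.00176 in limma). In DKO against WT the difference was 0.23 ± 0.09 (SE, adjusted p = 0.0457 in limma). That call was lost with the replicate number as a block (adjusted p = 0.0901) and without any library but DKO replicate 2 (0.0669 to 0.134, limma), in 12 of 20 alternatives in all. The ratio of Ppox to Cpox within a library was 0.725 to 0.820 in WT, 2.47 to 3.56 in DKO and 1.73 to 2.03 in DKO_TG.

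Fech (chromosome 18, 64452914 to 64490251, minus strand), which places iron in the ring, measured 30.4, 24.1 and 25.0 RPKM across WT libraries, 23.2, 22.6 and 22.7 across DKO libraries, and 20.9, 23.6 and 22.6 in the libraries of DKO_TG. The WT libraries were above all others, by a small step for 2 of them. The log2 difference was -0.20 (95% interval -0.43 to 0.03, adjusted p = 0.115 in limma) in DKO and -0.23 (95% interval -0.46 to -0.0044, adjusted p = 0.0817 in limma) in DKO_TG against WT, neither of them called. With TPM both turned and were called higher, at 0.34 and 0.29 (adjusted p = 0.0214 and 0.0448 in limma), or -0.19 and -0.23 relative to the shift of all genes.

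Of the breakdown enzymes, Hmox2 (chromosome 16, 4726361 to 4766742, plus strand), the constant form, measured 16.3, 16.9 and 17.5 RPKM across WT libraries, 10.9, 11.3 and 11.0 across DKO libraries, and 11.4, 11.6 and 11.5 in the libraries of DKO_TG. The spread within each group was small beside the step from WT. Hmox2 fell by 0.59 in DKO and by 0.54 in DKO_TG on the log2 scale (adjusted p = 0.000175 and 0.000318 in limma). With TPM both calls were lost, at -0.06 and -0.02 (adjusted p = 0.73 and 0.885 in limma), or -0.59 and -0.54 relative to the shift of all genes. Hmox2 shares 892 of its 2217 exon bases with Cdip1 on the opposite strand, which was at 6.94 to 8.46, 7.60 to 9.92 and 9.04 to 9.33 RPKM in the 3 groups.

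Hmox1 (chromosome 8, 75093621 to 75100589, plus strand), the form induced by heme and oxidants, measured 44.1, 37.9 and 36.5 RPKM across WT libraries, 41.3, 42.0 and 30.4 across DKO libraries, and 29.4, 30.5 and 26.2 in the libraries of DKO_TG. WT and DKO overlapped, and the log2 difference of -0.07 (95% interval -0.39 to 0.25, adjusted p = 0.69 in limma) turned with 4 rescalings and without WT replicate 1 or DKO replicate 3. With TPM it was called higher in DKO (0.48, adjusted p = 0.0164 in limma), and relative to the shift of all genes it was then at -0.06. In DKO_TG against WT, Hmox1 was called lower (log2 difference -0.45 ± 0.14 SE, adjusted p = 0.0255 in limma). The call was lost without WT replicate 1 or DKO_TG replicate 1 or 3 (adjusted p = 0.0802, 0.0577 and 0.0928 in limma), with quantile normalization (0.516) and with plain totals (0.222), and with TPM the difference was 0.07. Hmox1 is also a macrophage gene. The 10 macrophage markers summed to 182 to 231 RPKM in WT, 258 to 480 in DKO and 167 to 216 in DKO_TG. Of the 8 that passed the filter, limma called 6 higher in DKO against WT (30.8% of all genes) and 0 lower. In DKO_TG against DKO it called 6 lower (1.73% of all genes) and 0 higher. In DKO_TG against WT 1 was higher and 3 were lower (29.1% and 22.3% of all genes). The part of these markers in the Hmox1 values was not tested. The ratio of Hmox1 to Hmox2 was 2.08 to 2.71 in WT, 2.77 to 3.78 in DKO and 2.27 to 2.63 in DKO_TG.

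**Figure D4:**
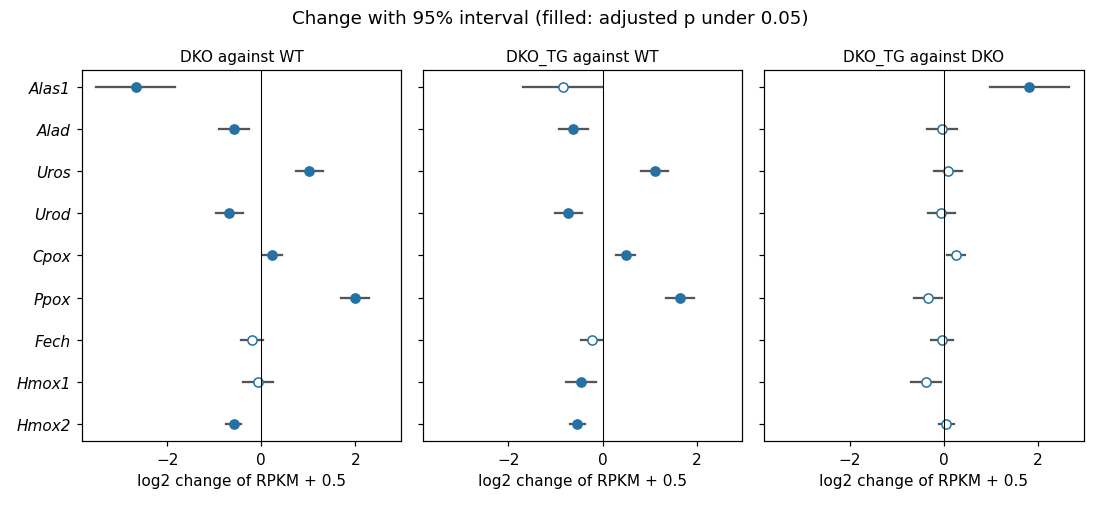
Log2 change of RPKM + 0.5 (horizontal axis) for each gene in the 3 comparisons, with 95% intervals from limma. Filled points had an adjusted p under 0.05. Alas1 is the filled point in DKO_TG against DKO, at 1.82.

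Over the 9 genes, all of which passed the filter, 3 were called higher and 4 lower in DKO against WT, against 30.8% and 25.9% of the 18889 genes tested. The median log2 difference of the 9 was -0.20, and that of all genes 0.02. In DKO_TG against WT 3 were higher and 4 lower, against 29.1% and 22.3% of all genes, with medians of -0.45 and 0.03. These comparisons share the WT libraries. The libraries did not overlap for 8 and 9 of the genes, as for 61.2% and 65.8% of all genes. With over 50% of genes called against WT (56.7% and 51.4%), the counts do not set the 9 genes apart. In DKO_TG against DKO, 1 gene was higher (Alas1) and 0 were lower, against 0.498% and 1.73% of all genes (2.23% in either direction). An unadjusted p under 0.05 in limma was reached by 4 of the 9, against 15.8% of all genes, and with voom on recovered reads 0 of the 8 genes it could test were lower. Libraries did not overlap for 4 genes (Alas1, Cpox, Ppox and Hmox2), as for 24.2% of all genes.

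Genes around the pathway were read from 8 lists. In DKO against WT, 30.8% of the 18889 genes tested were called higher and 25.9% lower. These shares stand beside each list count of that comparison below, and no list was tested against them. Of 11 tested genes that serve heme synthesis, DKO had 4 higher and 3 lower than WT. Slc25a37, the mitochondrial iron importer mitoferrin 1, rose from 1.62 ± 0.181 to 8.16 ± 0.8 RPKM, and Slc25a38, a mitochondrial glycine carrier, from 3.97 ± 0.308 to 8.48 ± 0.614 (SD, n = 3). Slc25a37 overlaps an antisense gene and is uncertain. Clpx, a protease subunit that acts on ALAS, rose by 0.36 on the log2 scale (adjusted p = 0.00392 in limma). Alas2, the red cell form of ALAS, had means of 1.69 ± 0.735 in WT, 3.59 ± 2.07 in DKO and 0.536 ± 0.188 RPKM in DKO_TG (SD over 3 libraries) and was not called in DKO against WT. The 9 erythroid markers in the table summed to 361 to 1657, 563 to 2415 and 198 to 285 RPKM. Of the 5 that passed the filter, limma called 3 lower in DKO_TG against WT (22.3% of all genes). It called 0 in DKO against WT and 0 in DKO_TG against DKO (56.7% and 2.23% of all genes).

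Of 5 genes of bilirubin formation and of heme a and heme c assembly, 1 fell, Cox10 (log2 difference -0.83, adjusted p = 0.000325 in limma), which makes heme o and overlaps an antisense gene. The biliverdin reductase genes Blvra and Blvrb had differences of -0.21 and -0.24 and were not called, nor was Cox15, the next enzyme toward heme a (0.13). With TPM, Blvra (0.32) and Cox15 (0.66) were called higher. Among 10 tested heme carriers and receptors 2 rose and 4 fell. Flvcr1, a heme exporter that shares 809 of its 5177 exon bases with an antisense gene, rose by 0.71 on the log2 scale. Abcg2, an exporter of porphyrins, fell by 0.60. Slco2b1, an organic anion carrier, also overlaps antisense genes and rose by 1.03.

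Among 11 tested regulators 4 rose and 1 fell. Mafg, a partner of both BACH1 and NRF2, rose by 1.74. It shares 124 of its 5613 exon bases with Sirt7 and is uncertain to that extent. Nr1d2, a heme-binding nuclear receptor, rose by 1.34, and Bach1, a repressor of Hmox1 that heme inactivates, by 0.47 on the log2 scale. In iron handling 1 of 11 rose, the iron regulatory protein gene Ireb2 (0.67), and 5 fell, among them the ferritin light chain gene Ftl1 (-1.22, uncertain for an overlap) and Aco1 (-0.60). Without DKO replicate 3 the 5 were 3, and the 1 lower regulator was 0. The iron list depended on the scaling, with 1 lower gene under each of TPM, quantile normalization and plain totals. The calls of Aco1 and Abcg2 were lost with TPM, at -0.05 and -0.08, that of Aco1 also with the other 2, and that of Ftl1 with quantile normalization (-0.51).

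In the list of cytochromes P450 and their electron donors, 1 of 12 rose and 4 fell in DKO. Cyp27a1, a sterol 27-hydroxylase, rose from 1.51 ± 0.194 to 7.24 ± 1.5 RPKM, and Cyp51, which demethylates lanosterol, fell from 182 ± 107 to 43.6 ± 10.9 (SD, n = 3). Cyp51 shares 166 of its 4415 exon bases with Akap9 and is uncertain to that extent. Cyb5r3, a cytochrome b5 reductase that overlaps an antisense gene, fell by 1.21 on the log2 scale. Alas1 RPKM was 4.58% to 8.62% of that of Cyp11a1 in WT, 1.13% to 2.85% in DKO and 3.63% to 4.29% in DKO_TG. Cyp11a1 itself fell in DKO against WT (log2 difference -1.13, adjusted p = 0.00659 in limma), so both sides of this ratio moved. In DKO_TG against WT, Cyp11a1 was not called (-0.28). Among 8 NRF2-responsive genes other than Hmox1, 1 rose and 3 fell: G6pdx (-0.97, overlapping Ikbkg), Slc7a11 (-1.15) and Srxn1 (-1.07). Of 11 tested heme proteins outside steroid synthesis 1 rose, the phagocyte oxidase gene Cybb (1.16), and 5 fell, with Sdhc at -0.96 and Cycs at -0.94. Without DKO replicate 3, 2 of that list rose. In DKO_TG against DKO, 0 of the 79 tested genes of the 8 lists were called by limma, and 0 of the 75 that voom could test. An unadjusted p under 0.05 in limma was reached by 19 of the 79, as by 15.8% of all genes. Without WT replicate 1 the iron list had 1 lower and the P450 list 1 higher. Without DKO replicate 1, 1 gene was lower in each of the lists of heme synthesis, iron and heme proteins. With TPM the lists of heme synthesis and iron had 1 lower each and the heme proteins 1 higher, with plain totals the iron list and the heme proteins had 1 lower each, and with quantile normalization the P450 list had 1 higher.

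**Figure D5:**
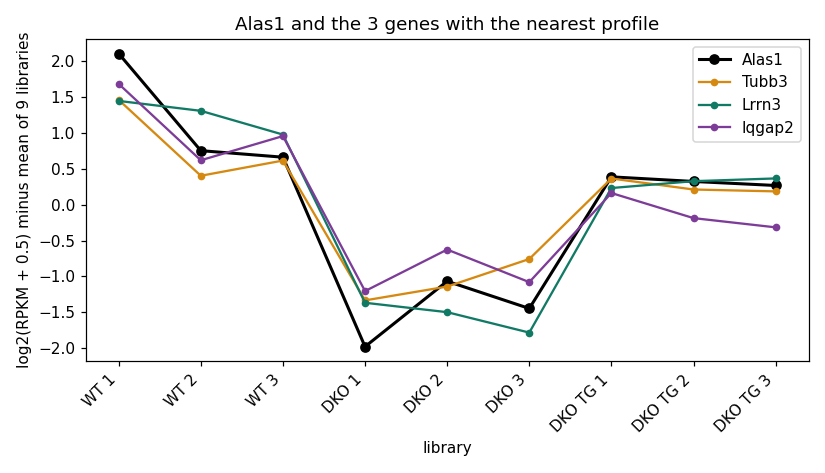
Log2(RPKM + 0.5) minus its mean over the 9 libraries (vertical axis) in each library (horizontal axis) for Alas1 and the 3 genes nearest to it. All 4 lines are lowest in the DKO libraries.

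The profile nearest to that of Alas1 over the 9 libraries, among 11841 protein-coding genes, was that of Tubb3, a neuronal-type tubulin, by the root mean square difference of centred log2 values (0.40). Lrrn3 (0.41) and Iqgap2 (0.45) came next. Tubb3 had means of 28.3 ± 11.9 in WT, 6.92 ± 1.55 in DKO and 17.9 ± 1.26 RPKM in DKO_TG (SD over 3 libraries). Nearest to Hmox1 was Itm2b, at a difference of 0.05, followed by Pth1r and Acad10 (0.07 each). Itm2b was at 206 ± 24.2, 199 ± 28.1 and 150 ± 12.8 RPKM (SD, n = 3 each). Pth1r shares 95 of its 2925 exon bases with Myl3 and is uncertain to that extent.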

How the data were processed

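The authors deposited RPKM values of 54838 genes in 9 libraries. The submitters' processing notes name mm10, DESeq2 1.2.8, HISAT2 2.1.0, HTSeq 0.5.4p5 and cutadapt. How RPKM was made, from which annotation and with what use of strand is not given in the sources used here. The columns of the transgene group spell its name differently from the labels and were matched by group and number. Multiplying RPKM by GENCODE M21 exon length gave whole reads for 97.8% of values above 0 (within 0.01 read or a relative 1e-06), not for Fech, whose level beside other genes rests on a length that was not matched. The library size behind the values was 0.793 to 0.920 of the total reads in WT and 1.03 to 1.11 in the others, so they carry a rescaling.

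Since RPKM values are not counts, log2(RPKM + 0.5) was tested with limma 3.58.1 in R 4.3.3 (mean-variance trend, all 9 libraries in 1 fit) for the 18889 genes that reached 0.5 RPKM in 3 or more libraries. Genes with a Benjamini-Hochberg adjusted p under 0.05 over all of them were called. Fold changes understate those of low genes. The 9 genes, the lists and the tests were chosen with earlier results of these data known. Named are the 9 genes, from each list the 3 or fewer genes of lowest adjusted p in DKO against WT, Alas2, Blvra, Blvrb, and the 3 profiles nearest to Alas1 and to Hmox1. 1 gene under this rule is not reported here. The alternatives used a pseudocount of 0.1 or 1, a filter at 1 RPKM or none, TPM, median-of-ratios, quantile and plain total rescaling, voom on recovered reads, the replicate block, a fit of 6 libraries, and leaving out each library.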

Additional observations from a re-analysis of the deposited data

How the results depend on the processing

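Alas1, Ppox and Uros kept their calls in DKO against WT in all 20 alternatives, with log2 differences of -2.92 to -2.13, 1.83 to 2.57 and 0.78 to 1.58. TPM moved the log2 differences of all genes against WT by a median of 0.54 in DKO and 0.51 in DKO_TG. Plain totals moved them by a median of 0.28 and 0.24, and quantile normalization by -0.17 and -0.18. In DKO against WT, TPM gave 5 of the 9 genes higher and 1 lower, and 10041 genes higher and 1062 lower among all genes, and plain totals 2314 lower. In DKO_TG against WT, TPM gave 0 of the 9 genes lower, and 9776 higher and 991 lower among all genes, plain totals 2238 lower, and quantile normalization 2 of the 9 lower.

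In DKO_TG against DKO, where 94 genes were higher and 327 lower, the higher genes were 21 with the replicate block, 24 in the fit of 6 libraries and 10 to 111 on leaving out 1 library. The lower ones were 162 with no filter, 78 with the block, 44 in the fit of 6 and 23 to 391 on leaving out 1 library. The count of 1 higher gene of the 9 was 0 with no filter, 0 with the block and 0 to 1 on leaving out 1 library. The cause was not tested. Against WT the block ended the call of Cpox in DKO (adjusted p = 0.0901 in limma) and of no other of the 9 genes. Same-numbered libraries had correlations of deviations from -0.31 to 0.14, and 4 of 18 best matches had the same number. Pairing by number was thus not seen, but 3 libraries per group are too few to exclude it.

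Directions turned as follows, none of them for a gene called in the main test except Hmox1 in DKO_TG against WT (0.0706 with TPM). In DKO against WT, Fech was at 0.3425 with TPM, 0.0958 with quantile normalization and 0.1077 with plain totals. Hmox1 was at 0.479, 0.3478 and 0.2429 in the same order, 0.0346 with median-of-ratios, 0.0116 without WT replicate 1 and 0.0797 without DKO replicate 3, with a range of -0.1508 to 0.0797 on leaving out 1 library. Blvra was at 0.3197 and 0.0892 and Blvrb at 0.2953 and 0.0638 with TPM and plain totals. In DKO_TG against WT, Fech was at 0.288, 0.0135 and 0.0273 with TPM, quantile normalization and plain totals. In DKO_TG against DKO, Alad was at 0.0549 and Uros at -0.0621 without DKO replicate 3, Alad at 0.0014 without DKO_TG replicate 3, Urod at 0.0735 without DKO replicate 2 and Fech at 0.0156 without DKO_TG replicate 1. On leaving out 1 library these ranged from -0.1052 to 0.0549 for Alad, -0.0621 to 0.1755 for Uros, -0.1713 to 0.0735 for Urod and -0.0688 to 0.0156 for Fech. In the 8 lists, DKO against WT, TPM raised the higher regulators from 4 to 8 and the higher heme proteins from 1 to 5, and left 0 lower heme synthesis genes and 0 lower carriers. Fech has no voom value. Of 15 alternatives, Tubb3 stayed among the 3 profiles nearest to Alas1 in 14, Lrrn3 in 12 and Iqgap2 in 7, and near Hmox1, Itm2b in 14, Acad10 in 11 and Pth1r in 10.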
